A study of Mus musculus with 18 samples.

Results

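The mouse gene Sfmbt2 carries a dense array of microRNA hairpins in a large intron, and the array gives rise to the miR-297, miR-466, miR-467 and miR-669 subfamilies. Members were taken as every row of the deposited miRNA table placed on chromosome 2 between positions 10370000 and 10600000 of the mm10 mouse genome, and the rows of each mature miRNA were summed. This gave 139 rows from 72 precursors and 70 mature miRNAs, of 1907 mature miRNAs in the table. Reads were present for 51 of the 70, and 19 had none in any library.

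The libraries hold small RNAs of NIH/3T3 cells, a mouse embryonic fibroblast line, sequenced as input and after Ψ-IP, an immunoprecipitation (IP) in which an antibody captures RNA that carries pseudouridine (Ψ), an isomer of uridine. Unperturbed cells (WT) were compared with cells 3 days (KD3) and 6 days (KD6) after knockdown of Pus1, which encodes a pseudouridine synthase. Each of the 6 groups had 3 libraries, named A, B and C, and nothing in the labels says whether the letters are separate cultures, so p-values measure the spread between these libraries. All groups share 1 cell line and 1 antibody, how the knockdown was made is not given in the sources used here, and Pus1 itself is not measured by small RNA sequencing.

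Sfmbt2 encodes a Polycomb-group protein and is known for imprinted expression from the paternal allele in extraembryonic tissues. Its intronic miRNA array is specific to rodents and is known for a role in placental development. A miRNA hairpin yields a 5p and a 3p arm, named for the end of the hairpin they come from, and the arm kept in the effector complex recognises targets mainly through its seed (bases 2 to 8). Because the array arose by repeated copying of a short unit, many of its miRNAs have near-identical sequences.

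In GENCODE M21 (GRCm38, the same build) Sfmbt2 lies on the plus strand at chr2:10370510-10595253. All 139 rows lay between 10466677 and 10518219, 96167 to 147709 bases from the annotated start of the gene. All 139 were inside introns, within intron 10 of transcript Sfmbt2-201 and intron 11 of Sfmbt2-205, which is the same interval (10461473 to 10523944), and none touched an exon. Each row fell inside an annotated plus-strand hairpin. The miR-669c hairpin, the source of most reads, is at chr2:10509296-10509404. The hairpins of miR-467c (chr2:10473931-10474027) and miR-467e (chr2:10505721-10505807), next in abundance among the members, lie on the 5′ side of it.

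The same families also have 10 mature miRNAs with rows only outside the interval, of which 8 had a mature sequence in the RefSeq table (GRCm38.p6). The 4 below were chosen to show the runs of alternating bases in such sequences, 3 of them with U and G and 1 with A and C, as uridine is the base that Ψ replaces. Capitals mark the seed.
miR-466k (chr3:85467396-85467418, plus strand): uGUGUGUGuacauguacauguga
miR-467h (chr9:115381898-115381919, plus strand): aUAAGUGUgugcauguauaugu
miR-669n (chr3:115979905-115979924, plus strand): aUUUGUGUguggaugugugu
miR-467f (chr11:69635419-69635439, minus strand): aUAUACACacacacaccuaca
The uridines numbered 9 in miR-466k, 9 in miR-467h and 10 in miR-669n, and 3 in miR-467f, whose run alternates A and C. Among the 4 not shown they numbered 3 in miR-466i-3p, 3 in miR-466q, 6 in miR-467g and 9 in miR-466j, so 4 of the 8 had 9 or 10 and 4 had 3 to 6. These relatives were almost silent here. The highest, miR-466f, totalled 41.9 estimated reads over the 18 libraries, miR-669n had 13.7, miR-466k and miR-467h had 10.6 each, and none passed the filter on low counts.

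The values are estimated reads, because the counting splits a read over all loci it matches. Of the members' values above 0, 77.2% were not whole numbers, against 47% over the whole table. Levels are given as CPM, estimated reads per 1000000 of the library's TMM-scaled miRNA reads. Libraries held 3989031 to 15099781 mapped reads, apart from KD6 input A with 241109. That library held 190 reads of the cluster from 18 members, and a count of 0 there allows up to 13.4 per 1000000 miRNA reads, above the level of most members. The other 17 libraries held 4549 to 19556 cluster reads from 22 to 46 members, and a 0 in them allows up to 0.219 to 1.07. These limits are 3 counts over the library's miRNA reads without TMM scaling, so they differ somewhat from CPM. They cover counting error only. All 6 fibroblast markers, among them miR-21a-5p and miR-199a-3p, were present in all 18 libraries, and summed to 265902 to 463921 CPM in inputs and 67001 to 172895 in IPs. Of 19 markers of other tissues, 17 stayed under 12 CPM in every library, and the pluripotency miRNAs miR-290a-5p, miR-291a-3p, miR-295-3p and miR-302b-3p were at 0 in all 18. The brain-enriched miR-9-5p (2553 to 8142 CPM) and the liver-enriched miR-122-5p (24.4 to 291 CPM) were present throughout. The 19 summed to 2624 to 3809 CPM in inputs and 5725 to 8233 in IPs, and their part in the results below was not tested.

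The cluster's reads, as counted, came mostly from a single arm of a single hairpin. Whether the counting keeps reads that match many loci was not tested, so these shares describe the counted reads only. Over the 18 libraries the cluster had 178381 reads, and miR-669c-5p alone had 141363 of them. miR-467c-5p followed with 10212 reads, miR-467e-5p with 6539, miR-669o-5p with 4689, miR-669l-5p with 3714 and miR-466c-5p with 2443. By subfamily, miR-669 (29 members) held 86.7% of the reads, miR-467 (10 members) 9.96%, miR-466 (25 members) 2.23% and miR-297 (6 members) 1.12%. The 32 members named as 5p arms held 175365 reads, the 34 named as 3p arms held 2989, and 4 with no arm in the name held 26. Some reads were found for 26 of the 5p and 23 of the 3p arms.

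**Figure D1:**
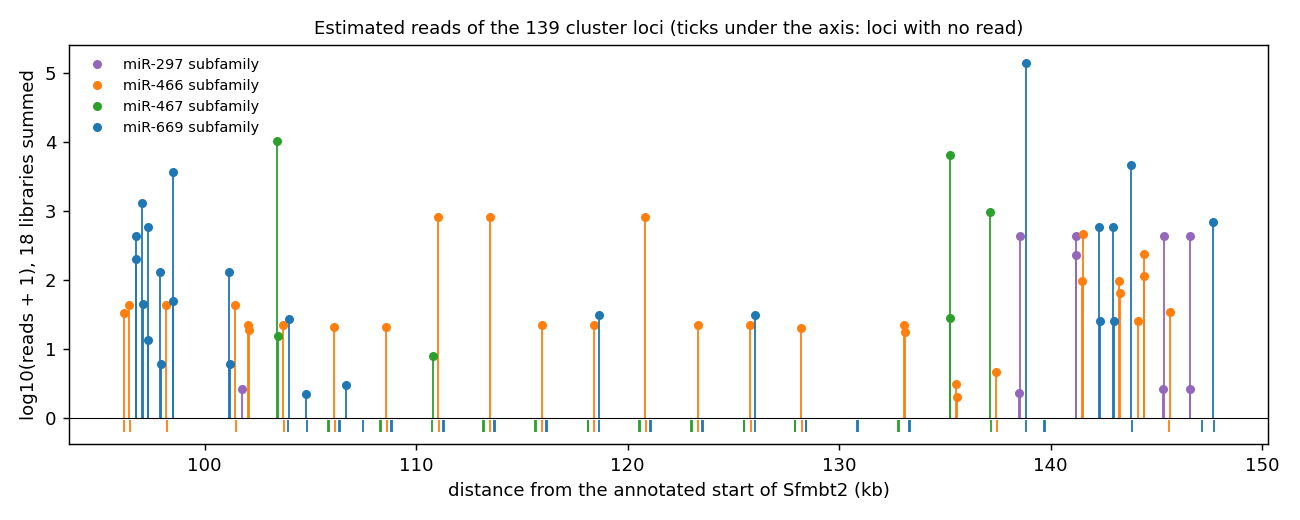
Estimated reads of the 139 cluster rows, summed over 18 libraries, against distance from the annotated start of Sfmbt2 in kilobases; the vertical axis is log10(reads + 1), colours are subfamilies and ticks under the axis are rows with no read. miR-669c-5p, with 141363 reads, stands above the rest, and 70 of the 139 rows have no read.

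Read number did not follow the number of copies of a miRNA in the array. The members with the most rows were miR-669a-5p (12 rows), miR-669a-3p (11 rows) and the 2 arms of miR-467a (10 rows each), and all 4 were at 0 in all 18 libraries. These were chosen after their values were seen. miR-466b-5p, with 8 rows, had 164 reads, and miR-669c-5p has 1 row. No miRNA of the table outside the cluster has more than 3 rows, so the table holds no others with 10 or more to set beside these 4, and whether reads matching many loci are kept by the counting was not tested.

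Shared reads tie several members together, so these, named after their values were seen, are not separate measurements. miR-297a-3p (2 rows), miR-297b-3p and miR-297c-3p had the same value in every row and library, 439.4 reads per row in total. miR-466d-5p and miR-466n-5p also had the same values, 95.9 reads each, as did miR-669d-3p and miR-669d-2-3p with 5.1 each. miR-669b-5p had 0.5 to 0.507 reads for each read of miR-669m-5p in every library, which is the same value per row to that precision. Their results below stand for groups of like sequences.

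The cluster's share of all miRNA reads was higher in IP than in input in each condition. In WT the input libraries A, B and C were at 0.0772%, 0.0916% and 0.0739% and the IP libraries at 0.183%, 0.211% and 0.188%. In KD3 the inputs were at 0.0747%, 0.0798% and 0.0744% and the IPs at 0.152%, 0.183% and 0.205%. In KD6 the inputs were at 0.0849%, 0.169% and 0.216% and the IPs at 0.380%, 0.355% and 0.309%. Inputs and IPs did not overlap in any condition. The WT mean was 0.0809% ± 0.0094 in input and 0.194% ± 0.015 in IP (SD, n = 3). For KD3 it was 0.0763% ± 0.0031 and 0.180% ± 0.026, and for KD6 0.157% ± 0.067 and 0.348% ± 0.036. All 3 KD6 IP libraries lay above all WT and KD3 IP libraries. KD6 input B and C lay above all WT and KD3 inputs and replicate A lay among them. Divided by all mapped reads instead, the IP means were lower (0.162% in WT, 0.121% in KD3 and 0.252% in KD6) and still above the inputs of their condition.

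**Figure D2:**
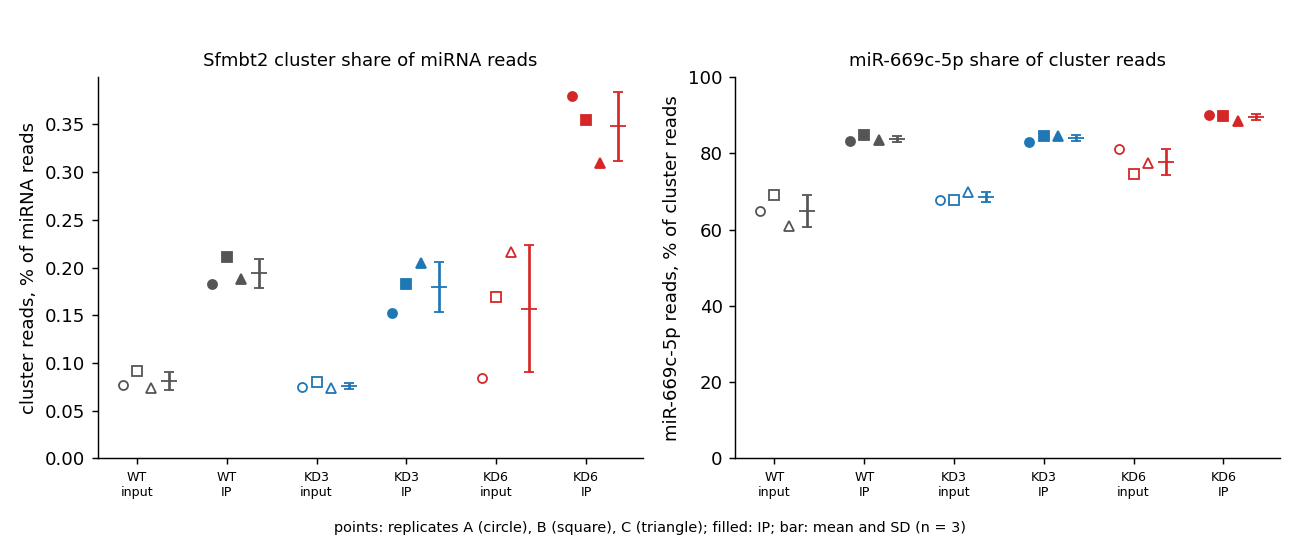
Left, cluster reads as a percent of all miRNA reads, and right, miR-669c-5p as a percent of cluster reads, per library (open, input; filled, IP; circles A, squares B, triangles C) with mean and SD (n = 3). IP libraries lie above the inputs of their condition in both panels, and the KD6 IP libraries are highest, at 0.309% to 0.380% and 88.5% to 90.0%.

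The composition within the cluster, which does not depend on how libraries are scaled, also differed between IP and input. miR-669c-5p made up 64.9%, 69.2% and 60.9% of the cluster reads in WT input and 83.3%, 84.7% and 83.4% in WT IP. It made up 67.8%, 67.9% and 70.0% in KD3 input and 83.1%, 84.6% and 84.5% in KD3 IP. In KD6 it made up 81.3%, 74.5% and 77.5% of the input and 90.0%, 89.9% and 88.5% of the IP. Input and IP did not overlap in any of the 3 conditions, and the KD6 inputs lay above the WT and KD3 inputs, replicate A with its 190 reads included.

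The other subfamilies took smaller shares of the IP. The miR-466 share of cluster reads was 5.13% ± 0.86 in WT input and 0.575% ± 0.131 in WT IP, 5.42% ± 0.50 then 0.711% ± 0.149 for KD3, and 3.01% ± 0.28 then 0.230% ± 0.032 for KD6 (SD, n = 3). The miR-467 share was 15.4% ± 1.7 then 9.21% ± 0.33 for WT, 14.2% ± 0.84 then 10.1% ± 0.51 for KD3, and 8.43% ± 0.91 then 6.02% ± 0.32 for KD6. These shares sum to a whole with that of miR-669c-5p, so a lower share does not by itself give a lower level.

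On the CPM scale, the miR-466 subfamily was lower in every IP library than in every input of its condition. It summed to 43.1 ± 4.2 CPM in WT input and 10.4 ± 1.3 in WT IP, 42.5 ± 3.6 then 12.4 ± 3.1 for KD3, and 40.2 ± 17.4 then 9.43 ± 0.74 for KD6 (SD, n = 3). Most of that difference was miR-466c-5p. Without it the rest of the subfamily, which holds a member called higher in IP (miR-466h-3p), summed to 13.6 ± 1.6 CPM in WT input and 8.07 ± 1.46 in WT IP, 12.9 ± 1.5 then 10.8 ± 2.2 for KD3, with overlapping libraries, and 16.4 ± 5.1 then 9.06 ± 1.37 for KD6. The miR-467 subfamily summed to 130.1 ± 5.0 then 169 ± 11.8 CPM for WT, 112 ± 6.9 then 177 ± 18.8 for KD3, and 112 ± 46.7 then 249.6 ± 35.5 for KD6. Without miR-669c-5p, the rest of the cluster was at 295 ± 16.9 CPM in WT input and 296 ± 18.9 in WT IP, at 246 ± 9.8 then 277 ± 28.6 in KD3, and at 305 ± 149 then 435 ± 54.2 in KD6. On this scale most of the cluster's difference between IP and input was that miRNA in each condition.

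Of the 70 members, 24 passed the filter on low counts and were tested among 550 miRNAs (edgeR quasi-likelihood, Benjamini-Hochberg, adjusted p under 0.05). These were 4 of miR-297, 6 of miR-466, 3 of miR-467 and 11 of miR-669, or 17 5p and 7 3p arms. The 46 others were too low to test, and 27 of them had some reads.

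The first question was which cluster miRNAs the Ψ antibody brought down. In WT, 11 of the 24 passed, 4 higher and 7 lower in IP (45.8%, against a background of 65.6% of all miRNAs tested, 25.5% higher and 40.2% lower). In KD3, 10 passed, 4 higher and 6 lower (background 65.8%, of which 27.6% higher and 38.2% lower). In KD6, 17 passed, 7 higher and 10 lower (background 68.9%, of which 30.5% higher and 38.4% lower). The same 4 were higher in all 3 conditions (miR-669h-5p, miR-466h-3p, miR-669c-5p and miR-467c-5p) and 6 were lower in all 3 (miR-466c-5p, miR-466f-5p, miR-297b-5p, miR-669d-5p, miR-669e-5p and miR-669f-3p), of which miR-297b-5p and miR-669f-3p were named after their values were seen. None was called in opposite directions in 2 conditions, and 7 passed in none. The filter on low counts used all libraries together, so a member could pass it through inputs or IPs alone. miR-466h-3p passed it through IPs alone. miR-466f-5p, miR-297b-5p and miR-669f-3p passed it through inputs alone, with at most 0.120, 1.48 and 0.887 CPM in any IP. miR-669d-5p was above 0.622 CPM in a single IP library, KD6 A. For these members the direction of a call was in part set by the filter. How many of all miRNAs tested were called alike in all 3 conditions was not counted, so the 4 and the 6 have no background beside them. In WT, KD3 and KD6 the IPs held 3.0, 2.0 and 6.2 estimated reads of miR-297b-5p and 3.9, 3.0 and 6.1 of miR-669f-3p. The call of miR-669f-3p was lost in 5 of 17 other settings in KD3 and 5 of 16 in KD6. That of miR-297b-5p was lost in 2 of 16 in KD6.

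These ratios are relative to the scaling, which set the median log2 ratio of all 550 miRNAs at −0.35 in WT, −0.26 in KD3 and −0.35 in KD6. The members' own medians were −0.24, −0.26 and −0.57. Over the settings tried, the median of all miRNAs ran from −0.40 to 0.59 in WT, −0.61 to 0.46 in KD3 and −1.16 to 0.41 in KD6, so values are also given relative to it. The split of calls moved with it. With a minimum mean of 10 counts 12 of 20 members passed in WT, 7 higher and 5 lower, where 76.3% of all miRNAs passed, and 11 in KD3, 6 higher and 5 lower, where 74.2% did. In KD6 16 of 24 passed with RLE factors, 9 higher and 7 lower (71.3% of all miRNAs), 10 of 18 with only the KD6 libraries fitted, 8 higher and 2 lower (65.3%), and 21 of 25 with total mapped reads as library size, 4 higher and 17 lower (70.2%). No called member changed direction under any setting.

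miR-669c-5p was the most abundant member and among those higher in IP. Its levels in libraries A, B and C were 526, 640 and 489 CPM in WT input and 1368, 1712 and 1535 CPM in WT IP. They were 527, 537 and 549 CPM in KD3 input and 1217, 1540 and 1664 CPM in KD3 IP. In KD6 they were 584, 1210 and 1265 CPM in input and 4390, 3893 and 2928 CPM in IP. All IP libraries lay above all inputs within each condition. The log2 ratio of IP to input was 1.48 ± 0.24 (SE) in WT (adjusted p = 1.77e-05), 1.46 ± 0.24 in KD3 (2.13e-05) and 1.86 ± 0.24 in KD6 (8.66e-07; edgeR, n = 3 per group). These are 2.79-fold, 2.74-fold and 3.63-fold. Against the all-miRNA median they were 1.83, 1.71 and 2.21, and over all settings 1.43 to 1.93, 1.46 to 1.76 and 1.496 to 2.37.

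miR-669h-5p, a far rarer arm from the same subfamily, had a larger ratio. It was at 1.45, 1.97 and 1.49 CPM in WT input and 9.80, 7.13 and 9.38 in WT IP. It was at 2.66, 1.35 and 3.92 CPM in KD3 input and 13.2, 8.87 and 14.7 in KD3 IP. KD6 levels were 0, 5.48 and 2.72 CPM in input and 14.3, 16.03 and 17.6 in IP. No input overlapped an IP, although the 0 in the shallow KD6 input A allows up to 13.4 CPM. The log2 ratio was 2.40 ± 0.41 in WT (adjusted p = 2.57e-05), 2.25 ± 0.39 in KD3 (3.75e-05) and 2.08 ± 0.43 in KD6 (2.12e-04; edgeR, n = 3 per group).

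miR-466h-3p was the only miR-466 member called higher, and it was rare. It passed the filter on low counts through IP libraries alone. The direction of its call was thus in part set by the filter, and the call is not separate support. Its counts summed to 10.1 in WT input and 21.8 in WT IP, 12.3 and 37.9 in KD3, and 4.0 and 25.4 in KD6. Its highest input library was at 0.390 CPM in WT, 0.494 in KD3 and 0.496 in KD6, and its lowest IP library at 1.28, 2.13 and 1.30. The groups did not overlap. The log2 ratio was 1.97 ± 0.77 in WT (adjusted p = 0.0302), 3.28 ± 0.74 in KD3 (5.85e-04) and 3.28 ± 0.94 in KD6 (0.00407; edgeR, n = 3 per group). In WT it did not pass without the filter on low counts (adjusted p = 0.0866).

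The miR-467 subfamily did not move as a block. miR-467c-5p was at 66.6, 63.7 and 64.0 CPM in WT input and 97.5, 126 and 118 in WT IP, at 57.3, 54.2 and 51.0 in KD3 input and 109, 117 and 127 in KD3 IP. KD6 levels were 18.9, 79.9 and 56.2 CPM in input and 212, 172 and 144 in IP. The IP libraries lay above the inputs in each condition. The log2 ratio was 0.81 ± 0.26 in WT (adjusted p = 0.00942), 1.12 ± 0.26 in KD3 (9.08e-04) and 1.59 ± 0.28 in KD6 (2.99e-05; edgeR, n = 3 per group). Replicate A of the KD6 input carried 5 of its reads, and without that library the value in KD6 also passed. In WT it did not pass without the filter on low counts (adjusted p = 0.0530).

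miR-467e-5p, of nearly the same input level, did not pass in any condition. It was at 53.2, 51.4 and 61.6 CPM in WT input and 54.7, 46.3 and 46.2 in WT IP, and its log2 ratio was −0.18 ± 0.22 (adjusted p = 0.483, edgeR, n = 3). It was 0.16 ± 0.22 in KD3 (0.524) and 0.28 ± 0.23 in KD6 (0.280). The inputs and IPs overlapped in all 3 conditions. Within a library, the reads of miR-467c-5p per read of miR-467e-5p were 1.25, 1.24 and 1.04 in WT input and 1.78, 2.72 and 2.55 in WT IP. They were 1.20, 1.03 and 1.20 in KD3 input and 2.54, 2.19 and 2.02 in KD3 IP, and 0.455, 1.27 and 0.974 in KD6 input and 3.26, 2.12 and 2.39 in KD6 IP. This ratio needs no scaling, and it did not overlap between input and IP in any condition. The third tested arm, miR-467d-5p, did not pass in any condition and averaged 9.57 ± 1.13 CPM in WT input and 5.30 ± 1.69 in WT IP.

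**Figure D3:**
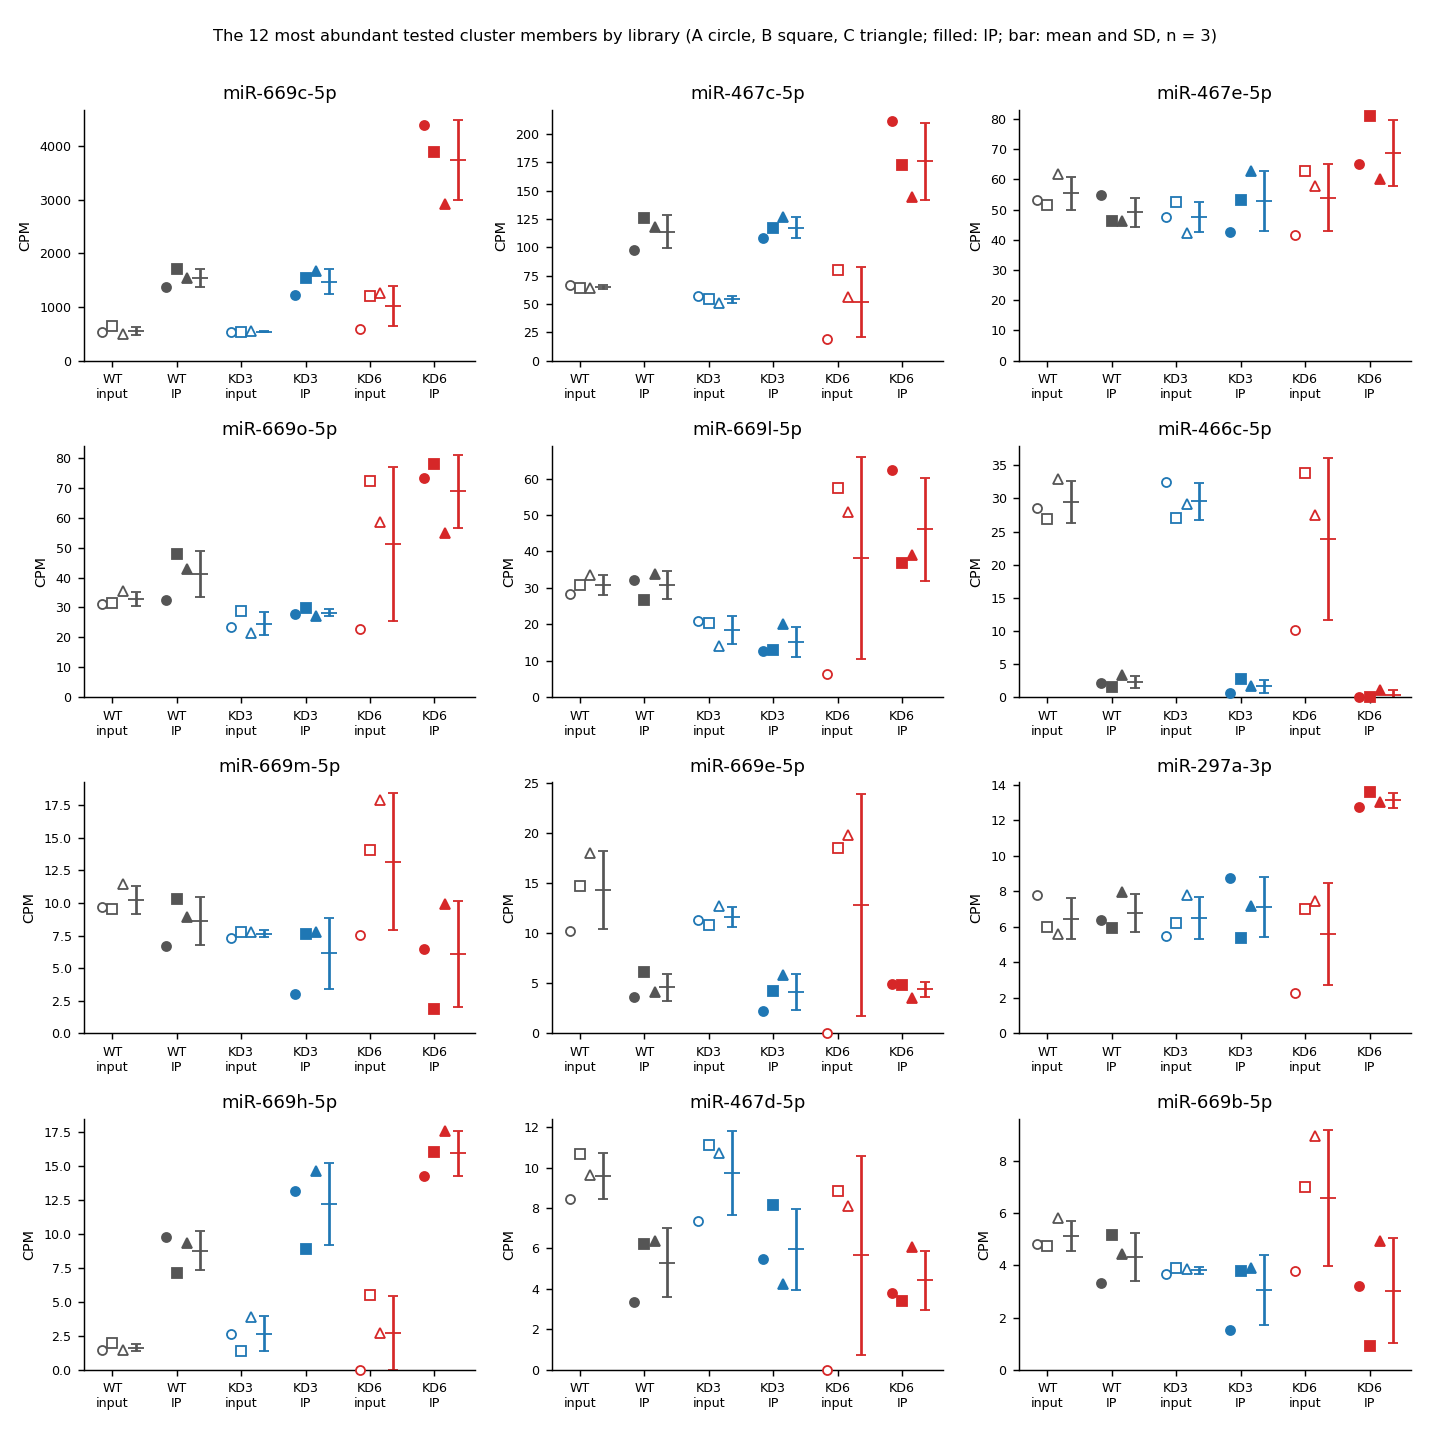
CPM of the 12 most abundant tested cluster members in each of the 18 libraries (open, input; filled, IP; circles A, squares B, triangles C), with mean and SD (n = 3). miR-669c-5p, miR-467c-5p and miR-669h-5p are higher in every IP library than in every input of the condition, miR-466c-5p is lower in every one, and KD6 input A is the lowest KD6 input for most members.

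The clearest loss in IP was that of miR-466c-5p, a 5p arm with 3 rows of equal values. It was at 28.5, 26.9 and 32.9 CPM in WT input and 2.15, 1.48 and 3.30 in WT IP. It was at 32.5, 27.1 and 29.1 CPM in KD3 input and 0.676, 2.66 and 1.61 in KD3 IP. KD6 levels were 10.2, 33.9 and 27.5 CPM in input, and at 0, 0 and 1.12 in IP. No IP overlapped an input in any condition. The log2 ratio was −3.65 ± 0.43 in WT (adjusted p = 2.27e-07), −4.17 ± 0.47 in KD3 (1.38e-07) and −5.55 ± 0.57 in KD6 (2.31e-08; edgeR, n = 3 per group). The KD6 IP value rests on 6.6 estimated reads, all in replicate C, and over the settings the KD6 ratio against the all-miRNA median ran from −10.71 to −4.81.

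Ratios between members of the same library need no scaling. miR-467e-5p, which passed in no condition, had 1.86, 1.91 and 1.87 reads for each read of miR-466c-5p in WT input and 25.4, 31.3 and 14.01 in WT IP. In KD3 it had 1.46, 1.94 and 1.45 in input and 63.2, 20.03 and 38.9 in IP, and in KD6 input 4.07, 1.85 and 2.10. The ratio to miR-669c-5p combines the higher IP level of that arm with the lower level of miR-466c-5p. miR-669c-5p had 18.4, 23.8 and 14.9 reads for each read of miR-466c-5p in WT input and 636, 1157 and 465 in WT IP. In KD3 the values were 16.2, 19.8 and 18.9 in input and 1800.3, 579 and 1034 in IP. KD6 input values were 57.3, 35.7 and 46.0, and in KD6 IP only replicate C had any miR-466c-5p read (2623, and 54.0 for miR-467e-5p). The KD6 input A ratios rest on 2.7 estimated reads of miR-466c-5p, and each IP ratio on 2.1 to 22.5.

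Among the rarer miR-466 5p arms, miR-466f-5p and miR-466b-5p had few or no reads in IP and miR-466h-5p did not pass. miR-466f-5p had 37.8 estimated reads in the WT inputs and 0.9 in the IPs, 52.8 and 0.3 in KD3, and 34.5 and 0.3 in KD6 (adjusted p = 0.00172, 5.31e-04 and 4.24e-04, edgeR, n = 3 per group). miR-466b-5p summed to 43.6 in WT input and was at 0 in all 3 WT IP libraries, which with a floor of 3 counts over the group is at least 7.80-fold lower (adjusted p = 7.09e-04, edgeR). It summed to 63.7 and 0.7 in KD6 (adjusted p = 3.95e-04). In KD3 it summed to 52.1 and 4.3 and did not pass (adjusted p = 0.0717). These counts are too low for the fitted ratios to be read as sizes. They are not scaled for depth, and the WT and KD3 IP libraries held fewer miRNA reads than the inputs of their condition. miR-466f-5p and miR-466b-5p passed the filter on low counts through inputs alone, which in part sets the direction of their calls. miR-466h-5p, named after its values were seen, had 68.5 estimated reads in the WT inputs and 28.1 in the IPs, 68.5 and 21.4 in KD3, and 38.2 and 14.3 in KD6. After scaling, its log2 ratio was −0.42 ± 0.46 in WT, −0.27 ± 0.48 in KD3 and −0.85 ± 0.55 in KD6. It did not pass in any condition (adjusted p = 0.423, 0.625 and 0.177, edgeR, n = 3 per group).

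Among the miR-669 5p arms, 2 were lower in IP in all 3 conditions while miR-669c-5p and miR-669h-5p were higher. miR-669e-5p was at 10.2, 14.7 and 17.99 CPM in WT input and 3.59, 6.08 and 4.10 in WT IP. It was at 11.3, 10.8 and 12.7 CPM in KD3 input and 2.25, 4.26 and 5.79 in KD3 IP. In KD6 it was at 0, 18.5 and 19.8 CPM in input and 4.91, 4.79 and 3.55 in IP. The groups did not overlap in WT and KD3, and in KD6 they did because of the 0 in the shallow library. The log2 ratio was −1.63 ± 0.40 in WT (adjusted p = 0.00117), −1.43 ± 0.42 in KD3 (0.00467) and −1.94 ± 0.44 in KD6 (4.99e-04; edgeR, n = 3 per group). In WT the call was lost when any of WT input B or C or WT IP A or C was left out (adjusted p up to 0.207), and in KD3 when any library but IP C was left out (up to 0.170). Against the all-miRNA median the ratio stayed between −1.67 and −1.12 in WT and between −1.58 and −0.99 in KD3.

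miR-669d-5p had 90.2 estimated reads in the WT inputs and 4.8 in the IPs, 43.2 and 0 in KD3, and 105.9 and 15.0 in KD6. Against the floor of 3 counts the KD3 IP was at least 5.53-fold lower. It passed in WT (adjusted p = 0.00456), KD3 (0.00562) and KD6 (0.0347, edgeR, n = 3 per group), but in KD6 it passed in only 8 of 16 other settings. The WT call was lost in 3 of 16, without WT input C, WT IP B or WT IP C (adjusted p up to 0.0978), and the KD3 call in 1 of 15, without KD3 IP C (0.0599).

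Of the other abundant miR-669 arms, miR-669o-5p and miR-669l-5p did not pass in any of the 3 conditions. miR-669o-5p averaged 32.7 ± 2.4 CPM in WT input and 41.1 ± 7.8 in WT IP, and miR-669l-5p 30.8 ± 2.7 and 30.8 ± 3.8. miR-669m-5p, which shares reads with miR-669b-5p, was at 10.2 ± 1.1 CPM in WT input and 8.64 ± 1.83 in WT IP. In KD6 it was at 7.55, 14.0 and 17.9 CPM in input and 6.46, 1.83 and 9.91 in IP, overlapping values, with a log2 ratio of −1.21 ± 0.42 (adjusted p = 0.0133). That call and that of miR-669b-5p (−1.24 ± 0.45, 0.0191; edgeR, n = 3 per group) were lost in 8 of 17 other settings.

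The miR-297 3p arms passed in KD6 only, and the difference from WT did not pass. miR-297a-3p was at 7.81, 5.98 and 5.61 CPM in WT input and 6.41, 5.92 and 7.97 in WT IP, which overlap. It was at 5.47, 6.23 and 7.79 CPM in KD3 input and 8.75, 5.39 and 7.17 in KD3 IP, which overlap too. In KD6 it was at 2.26, 7.02 and 7.45 CPM in input and 12.7, 13.6 and 13.0 in IP, which do not. The KD6 log2 ratio was 0.91 ± 0.31 (adjusted p = 0.0140, edgeR, n = 3), and its change from WT was 0.84 ± 0.43 (adjusted p = 0.284). Without the shallow KD6 input A the ratio was 0.66 (adjusted p = 0.0734), and with library size alone it was 0.42 (0.237). miR-297b-3p and miR-297c-3p (0.93, adjusted p = 0.0412, edgeR) lost the call in 6 of 17 other settings, including both fits with a replicate block (adjusted p = 0.0669 and 0.102).

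**Figure D4:**
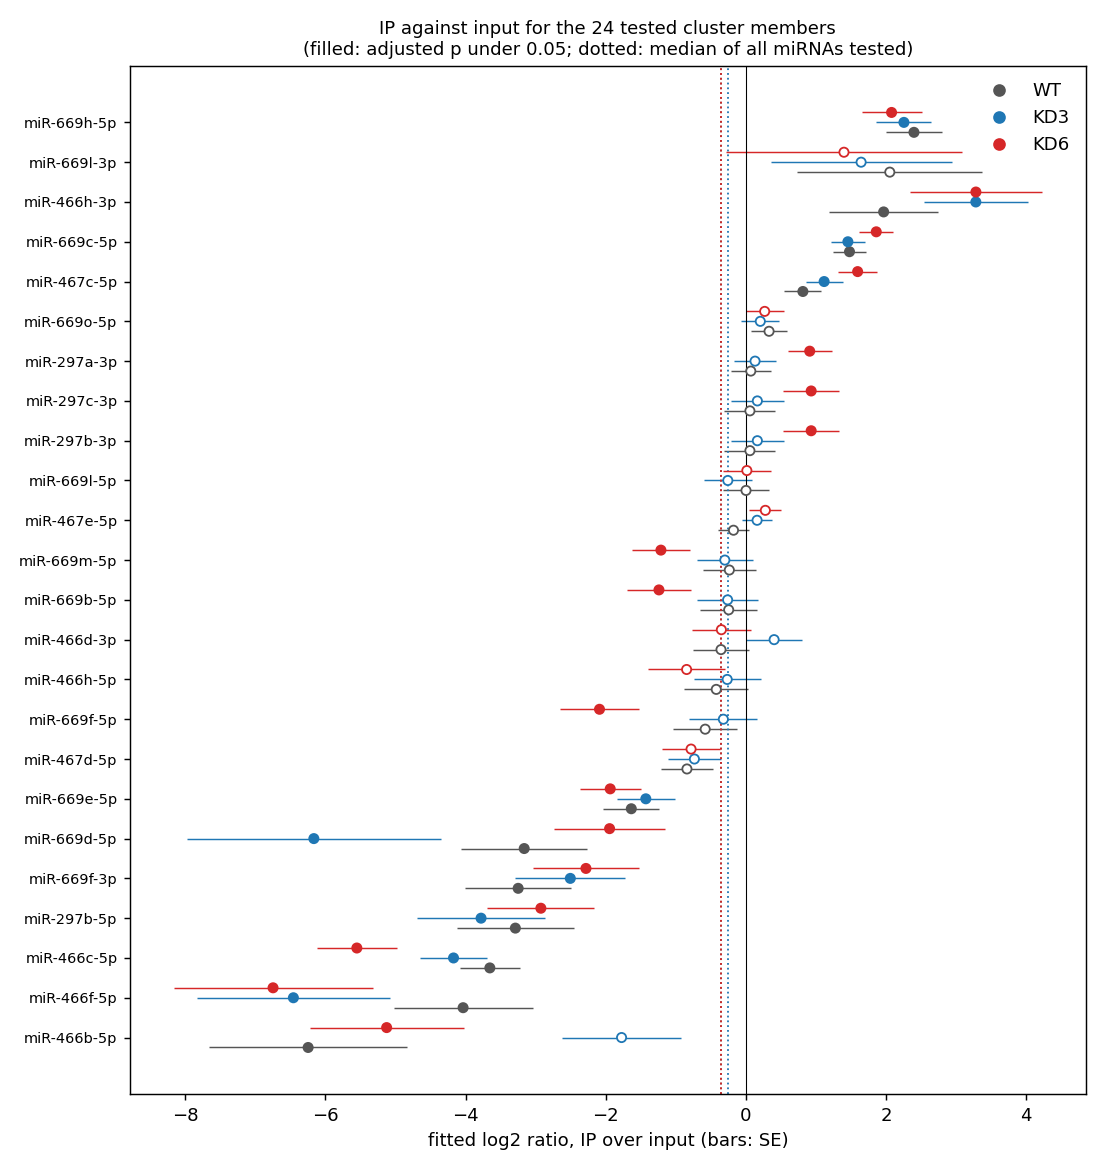
Fitted log2 ratio of IP to input with SE for the 24 tested members in WT, KD3 and KD6 (filled, adjusted p under 0.05; dotted lines, the median of all 550 miRNAs in each condition). miR-669h-5p, miR-466h-3p, miR-669c-5p and miR-467c-5p are filled on the right in all 3 conditions; ratios beyond −4, except those of miR-466c-5p, come from IP groups with 0 to 0.9 reads and are not sizes.

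By arm, the tested 3p arms had a median log2 ratio of 0.06 in WT, 0.16 in KD3 and 0.93 in KD6, and the 5p arms −0.42, −0.30 and −1.21. The medians of all miRNAs were −0.35, −0.26 and −0.35. The 7 3p arms include the 3 miR-297 arms that share reads.

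The second question was whether knockdown of Pus1 changed the enrichment. No member passed in KD3 against WT, KD6 against WT or KD6 against KD3, where the background was 0%, 0% and 0.182% of all miRNAs (edgeR). At an unadjusted p under 0.05 there was 1 member in each, against 17, 98 and 92 of all miRNAs. DESeq2 called no member in any of them. Among all miRNAs it called 0 of 1212 in KD3 against WT, 32 of 413 (7.75%) in KD6 against WT and 31 of 343 (9.04%) in KD6 against KD3. Only 16 members were tested by it in KD6 against WT and 11 in KD6 against KD3. For miR-669c-5p the change in log2 ratio was −0.02 ± 0.34 in KD3 against WT (adjusted p = 1.00), 0.38 ± 0.34 in KD6 against WT (0.598) and 0.40 ± 0.34 in KD6 against KD3 (0.514; edgeR, n = 3 per group). For miR-467c-5p it was 0.30 ± 0.37, 0.78 ± 0.38 and 0.48 ± 0.38. With SEs of this size, changes as large as those seen could not be told from 0.

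The members with an unadjusted p under 0.05 were miR-466b-5p in KD3 against WT, miR-466c-5p in KD6 against WT and miR-669f-5p in KD6 against KD3, and miR-669f-5p is named after its values were seen. For miR-466c-5p the change was −1.90 ± 0.78 (adjusted p = 0.223, edgeR). It rests on the 6.6 reads in KD6 IP. With total mapped reads as library size 2 of 25 members passed in KD6 against WT, both lower, among 51 of 568 miRNAs (8.98%). Without KD6 IP replicate C 1 of 25 passed in KD6 against WT, among 20 of 593 miRNAs (3.37%), and 1 in KD6 against KD3, among 44 (7.42%).

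The third question was the abundance of the cluster in total small RNA after knockdown. CPM is a share of each library's miRNA reads, so the amount per cell was not measured. In KD3 against WT input no member passed (background 0%, edgeR), and 1 had an unadjusted p under 0.05, against 46 of all miRNAs. That member was miR-669l-5p, at 28.2, 30.7 and 33.5 CPM in WT input and 20.8, 20.4 and 14.1 in KD3 input, with a log2 ratio of −0.74 ± 0.33 (adjusted p = 0.554). The groups did not overlap, as was so for 6 of the 24 members (25%), all lower in KD3, against 36.2% of all miRNAs (27.1% lower).

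In KD6 against WT input, 1 of 24 members passed, against 4.18% of all miRNAs (0.364% for those higher). It was miR-669c-5p, 1 of 2 miRNAs called higher among the 550. Its levels were 526, 640 and 489 CPM in WT input and 584, 1210 and 1265 in KD6 input. Replicates B and C of KD6 lay well above WT, and replicate A lay inside the WT range. The log2 ratio was 0.90 ± 0.24 (1.86-fold, adjusted p = 0.0320, edgeR, n = 3), or 1.13 relative to the median of all miRNAs, which was −0.24. It was 1.31 (adjusted p = 2.36e-04) without the shallow replicate A, and 1.01 (0.0508) without replicate C. Without replicate A 3 members passed, and without replicate C none did, of any miRNA.

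In KD6 against KD3 input 3 members passed, all higher and all of miR-669 (12.5%, against a background of 4.36%, or 1.27% for those higher). miR-669c-5p was at 527, 537 and 549 CPM in KD3 input, below all 3 KD6 inputs, with a log2 ratio of 0.94 ± 0.24 (adjusted p = 0.0291). miR-669o-5p was at 23.4, 28.7 and 21.3 CPM in KD3 input and 22.6, 72.4 and 58.4 in KD6 input, with a log2 ratio of 1.21 ± 0.27 (0.0129). miR-669l-5p was at 20.8, 20.4 and 14.1 CPM in KD3 input and 6.41, 57.5 and 50.8 in KD6 input, with a log2 ratio of 1.30 ± 0.34 (0.0303; edgeR, n = 3 per group). For these last 2 members KD6 replicate A, with 6 and 1.7 reads, overlapped or lay below the KD3 inputs, and replicates B and C lay above them. None of the 3 passed without KD3 input A, and miR-669c-5p alone did without KD3 input C or KD6 input B.

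Most other members leaned the same way without passing. Of the 24, 20 had a positive log2 ratio in KD6 against WT and 20 in KD6 against KD3, with medians of 0.30 and 0.48, while the medians of all miRNAs were −0.24 and −0.10. Both comparisons share the KD6 inputs. The tested miR-669 members had a median of 0.57 against WT and 0.94 against KD3, the miR-466 members 0.30 and 0.21, the miR-467 members −0.15 and 0.11, and the miR-297 members 0.09 and 0.09. miR-466c-5p, low in the IPs, was at 10.2, 33.9 and 27.5 CPM in KD6 input, with a log2 ratio of −0.09 ± 0.37 against WT (adjusted p = 0.935, edgeR, n = 3). Reads of miR-669c-5p per read of miR-467e-5p were 9.89, 12.5 and 7.94 in WT input, 11.1, 10.2 and 13.0 in KD3 input and 14.1, 19.3 and 21.9 in KD6 input. All 3 KD6 inputs lay above all WT and KD3 inputs in this ratio within libraries. For replicate A the ratio rests on 11 reads of miR-467e-5p, and its 14.1 is close to the 13.0 of the highest KD3 input.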

How the data were processed

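The authors trimmed adapters and quantified small RNA reads with the SeqImp pipeline against mm10, Ensembl 89 and miRBase 21. The deposited values are estimated counts per miRNA locus, where a read of several loci is split over them, beside estimated counts of distinct read sequences. The members and lists were chosen with earlier results of these data known. Rows in the interval were summed per mature miRNA as members, other rows were summed per mature miRNA, and sums were rounded. The 1 row of miR-297a-5p outside the interval was kept apart. The test was edgeR's quasi-likelihood test (version 4.0.16, under R 4.3.3, with TMM, filterByExpr, glmQLFit, glmQLFTest) as 6 group means over 18 libraries without a block, and adjusted over 550 miRNAs by Benjamini-Hochberg. The study used DESeq2, here an alternative (1.42.0). SEs were derived from the log2 ratio and its F statistic. In simulated counts for WT IP against input, 57.6% of 191 changes of 1 log2 unit among 525 miRNAs and 90.7% of 194 changes of 2 among 541 were recovered. For the change in enrichment in KD6 against WT, 22.9% of 192 changes of 1 among 540 and 74.4% of 195 changes of 2 among 532 were, and for KD6 against WT input 47.6% of 189 among 532 and 87.3% of 189 among 521.

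Named members are the 12 with the highest mean CPM and, per comparison, the 3 largest called ratios in each direction. Depth was 241109 to 15099781 mapped reads. Replicate letters were checked by correlating deviations from group means over 188 miRNAs. All letters were above 0.1 in 2 comparisons, of KD3 and WT inputs (0.20 to 0.61) and of KD6 and KD3 inputs (0.24 to 0.34). Pairing there comes from the values, as no label states what a letter shares. Positions were compared with GENCODE M21, and sequences are from RefSeq. Replicates differed beyond sampling noise in every group.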

Additional observations from a re-analysis of the deposited data

How the results depend on the processing

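Of 685 recalculations of the 42 called ratios of single members, 603 kept direction and side of the threshold, 82 kept direction only and none reversed, and 21 of the 42 passed in every setting tried. For KD6 against WT input, 1 member passed here. There were 2 with RLE factors (of 17 among all miRNAs), library size alone (of 13), total mapped reads (of 14), no filter (of 20), a minimum mean of 10 counts (of 15) or DESeq2 (of 31), and 3 with only the groups compared (of 20). Leaving out a library gave 0 (KD6 input C, 0 among all miRNAs) to 3 (KD6 input A, of 22). KD6 against KD3 input gave 0 (without KD3 input A, 1 among all miRNAs) to 3. With only the groups compared, IP against input in KD6 gave 10 (of 275) and KD3 against WT input 1 (of 77). Changes in enrichment gave 2 (of 51) for KD6 against WT with total mapped reads, and 0 to 1 for KD6 against WT and against KD3 with a library left out. Over all mapped reads the cluster's share was 0.162% in WT IP, 0.0689% in KD3 input, 0.121% in KD3 IP and 0.252% in KD6 IP. The cause of these differences was not tested. With the replicate letter as a block, 12, 10 and 15 members passed in IP against input for WT, KD3 and KD6. These are 50%, 41.7% and 62.5% of the members, against 65.8%, 65.8% and 67.5% of all miRNAs. In each change in enrichment 0 members passed (0%, 0% and 0.182% of all miRNAs), and in the inputs 0, 1 and 3 did (0%, 3.82% and 4%). With the block of IP and input pairs, 11, 10 and 15 passed in IP against input (45.8%, 41.7% and 62.5%, against 65.1%, 62.5% and 63.5% of all miRNAs). Under either block, miR-297b-3p and miR-297c-3p lost their call in KD6 (adjusted p = 0.0669 and 0.102, edgeR), and the paired input comparisons lost none. Depth limits most members to a few reads in KD6 input A, and divided reads limit any claim on a single copy.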

Other observations

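The table also counts distinct read sequences, in divided form as well. miR-669c-5p had 106 to 205 distinct sequences in the 17 deeper libraries and 13.7 in KD6 input A. miR-466c-5p had 21.9, 20.7 and 27.6 distinct sequences in WT input and 2.1, 3.6 and 4.5 in WT IP. Both its reads and its distinct sequences were fewer in IP. The distinct sequences are not scaled for depth and depend on the number of reads, so they are not a separate measure.

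Among members too low to test, chosen here after their values were seen, miR-466d-5p and miR-466n-5p (one shared value) summed to 35.9 estimated reads in WT input and 40.5 in KD3 input and were at 0 in all WT and KD3 IP libraries, at least 6.42-fold and 5.19-fold lower against a floor of 3 counts over the group. miR-669p-3p summed to 31.0 in WT input, 22 of them in replicate B, and was at 0 in all WT IP libraries, at least 5.55-fold lower. In KD3 it was not lower in IP, with means of 0.402 CPM in input and 0.451 in IP. Only members at 0 in an IP group were looked for here. miR-466l-3p went the other way in WT, with 6.0 reads in input and 19.7 in IP, but had 6.2 and 0 in KD3.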
